A study of Mus musculus with 4 samples.

Results

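A set of 10 genes that carry glucose into the cell, break it down to pyruvate and send it out as lactate was followed through the cell types of mouse lung tumors. The 10 members, Slc2a1, Hk2, Pfkfb3, Aldoa, Gapdh, Pgk1, Eno1, Pkm, Ldha and Slc16a3, were chosen by symbol from the 31019 gene symbols of the deposited feature table, and all 10 were found, on 11 feature rows. Together they gave 118805 unique molecular identifiers (UMIs, each standing for 1 captured mRNA molecule) over all cells of 1 pooled matrix.

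The tumors came from 4 mice whose lungs received Lenti-Cre by the intratracheal route and carried tumors for 16 weeks. All 4 were female, and all had 2 copies of the Lkb1 XTR allele (Lkb1XTR/XTR) and a Cre-dependent tdTomato reporter at Rosa26 (Rosa26LSL-tdTomato). In the XTR allele Cre turns a gene trap that stops Lkb1, a kinase gene and tumor suppressor. The 2 Restored mice also carried FLPo-ERT2 on the other Rosa26 copy, whose recombinase removes the trap under tamoxifen, and the 2 Non-Restored mice lacked it. Per the sample labels all 4 mice were given tamoxifen in 4 mg doses over 2 weeks, although the design text of the series also names a vehicle. The labels used here give no age. The cells were pooled from total viable cells of dissociated tumors, and no file used here maps a cell to its mouse. The pooled matrix therefore counts as 1 sample, Restored and Non-Restored cells were not compared, and no p-value is given. Every interval below is an exact 95% interval of counting error only, and unequal shares of the 4 mice among cell types cannot be told apart from differences between the types.

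Glycolysis is the cytosolic pathway that splits glucose into pyruvate with a small yield of ATP and without oxygen. Cells that divide, that are short of oxygen or that have few mitochondria lean on it and release the product as lactate. Neutrophils are a textbook example, because they keep few mitochondria and work in poorly oxygenated tissue, and activated macrophages and T cells also raise their glucose use. LKB1 acts upstream of the energy sensor AMPK, which links this pathway to cell growth.

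The members cover the route from end to end. Slc2a1 (ENSMUSG00000028645, chr4:119108711-119137983, plus strand, mm10 with GENCODE vM21) encodes GLUT1, a carrier that lets glucose through the cell membrane. Hk2 (ENSMUSG00000000628, chr6:82725025-82774454, minus strand) encodes hexokinase 2, which phosphorylates glucose and so traps it. Pfkfb3 (ENSMUSG00000026773, chr2:11471433-11554077, minus strand) makes fructose 2,6-bisphosphate, the activator of phosphofructokinase. Aldoa (ENSMUSG00000030695, chr7:126795234-126800751, minus strand) splits the phosphorylated sugar. Gapdh (ENSMUSG00000057666, chr6:125161715-125166467, minus strand), Pgk1 (ENSMUSG00000062070, chrX:106187100-106203699, plus strand), Eno1 (ENSMUSG00000063524, chr4:150236721-150248879, plus strand) and Pkm (ENSMUSG00000032294, chr9:59656368-59679375, plus strand) carry out the later steps to pyruvate. Ldha (ENSMUSG00000063229, chr7:46841475-46855627, plus strand) turns pyruvate into lactate, and Slc16a3 (ENSMUSG00000025161, chr11:120948480-120960868, plus strand) encodes MCT4, the carrier that exports it. All are protein-coding, and none shares an exon on its strand with another gene of the feature table. A second row named Aldoa held 0 UMIs. Eno1 has a near-identical copy, Eno1b, which held 1090 UMIs against 12103 for Eno1, so a part of the Eno1 reads could have been split between them.

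Stretches before a RefSeq transcription start are shown for 4 members, chosen as follows. Slc16a3 and Slc2a1 encode the carriers at the end and the start of the route. Both were past the 2-fold threshold in CPM in both neutrophil comparisons below. Hk2 was the only member lower in neutrophils than in interstitial macrophages past the 2-fold threshold in CPM, and Ldha held the most matches to the searched motifs. The stretches come from RefSeq on GRCm38.p6 and run 5′ to 3′ on the gene's strand. They lie at chr11:120948817-120949052 (Slc16a3), chr4:119108495-119108710 (Slc2a1), chr6:82774455-82774704 (Hk2, minus strand) and chr7:46845554-46845803 (Ldha). Those of Slc16a3 and Ldha precede RefSeq starts that lie inside the gene spans given above. Another Ldha window (chr7:46846832-46847081), which held fewer matches, is not printed. Capitals mark ACGTG or GCGTG on either strand (reverse complements CACGT and CACGC), the core letters of the element that hypoxia-inducible factors bind; CACGTG holds ACGTG on both strands.
Slc16a3: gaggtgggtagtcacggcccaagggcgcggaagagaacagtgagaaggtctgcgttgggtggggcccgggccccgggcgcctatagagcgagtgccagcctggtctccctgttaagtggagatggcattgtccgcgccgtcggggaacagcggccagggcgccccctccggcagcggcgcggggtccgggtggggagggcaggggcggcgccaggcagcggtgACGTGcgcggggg
Slc2a1: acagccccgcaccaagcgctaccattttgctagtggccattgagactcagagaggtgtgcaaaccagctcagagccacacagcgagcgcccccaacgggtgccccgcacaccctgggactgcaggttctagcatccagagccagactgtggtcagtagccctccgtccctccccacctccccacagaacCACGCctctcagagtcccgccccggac
Hk2: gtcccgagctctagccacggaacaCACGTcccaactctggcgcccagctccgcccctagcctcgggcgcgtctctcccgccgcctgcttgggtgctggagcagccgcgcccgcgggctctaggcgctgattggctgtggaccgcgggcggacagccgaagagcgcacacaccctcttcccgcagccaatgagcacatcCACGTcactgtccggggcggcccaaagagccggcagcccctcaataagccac
Ldha: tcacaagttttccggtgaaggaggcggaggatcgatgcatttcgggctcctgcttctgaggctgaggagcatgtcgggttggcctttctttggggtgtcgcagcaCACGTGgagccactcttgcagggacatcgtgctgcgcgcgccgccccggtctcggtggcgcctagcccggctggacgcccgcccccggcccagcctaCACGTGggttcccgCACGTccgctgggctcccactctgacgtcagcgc
The bases next to the start were left off where they overlap an annotated exon, 14 for Slc16a3 and 34 for Slc2a1. In Slc16a3 they held a further ACGTG match. In Slc2a1 a further ACGTG match lay across the cut, and its first letters end the printed stretch unmarked. All 10 members matched at least 1 RefSeq window of 250 bases, 17 windows in all. Of these windows, some of which overlap within Eno1 and within Aldoa, 15 (88.2%) held ACGTG or GCGTG, against 38.6% of all 32851 windows. Counted by gene, all 10 members had a match in at least 1 window, against 41.5% of 27025 genes. With 17 windows for 10 members and 32851 for 27025 genes, members had more windows per gene in which to match. Member windows also had more CG pairs, a median of 19 against 6, and the motifs contain CG. A match is a run of letters and not a shown binding site.

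Cell types were set by marker gates that contained no member. A cell needed at least 2 of the 6 markers of a class and at least 2 more than of any other class, which placed 13781 of 19488 filtered cells (70.7%) in 12 classes. Names such as neutrophil stand here for cells with those markers (neutrophil-like cells). The classes held 855 epithelial, 1728 endothelial, 107 stromal, 4237 T, 222 NK, 1744 B, 1675 neutrophil, 744 alveolar macrophage, 1861 interstitial macrophage, 375 monocyte, 74 dendritic and 159 basophil or mast cells. Levels are given as CPM, a gene's UMIs divided by the UMI total of its class and multiplied by 1e6. Markers held out of the gates were higher in their own class than in every other class except for the dendritic gate, where they reached 627 CPM against 804 CPM in B cells. In neutrophils these markers reached 138838 CPM, against 1138 CPM in the next class. Median depth ran from 909 UMIs per neutrophil to 5596 per alveolar macrophage. Transcripts typical of other classes were also counted. The surfactant transcript Sftpc gave 19.2 to 316 CPM outside the epithelium and was highest there in neutrophils. Outside neutrophils, the neutrophil transcripts S100a8 and S100a9 gave 16.6 to 391 and 8.22 to 259 CPM. Alveolar macrophages had 162 CPM of S100a8 and 8.22 of S100a9, beside 69200 and 68315 in neutrophils. Whether these counts outside the epithelium or neutrophils, or the S100a8 of alveolar macrophages, come from free RNA, mixed cells or the cells themselves was not tested. Genes of ribosomal proteins took 39.0% of T cell UMIs and 9.27% of neutrophil UMIs, which bears on every CPM value. The levels by class are in CPM, and the comparisons of classes also say where UMIs per cell turn or remove a printed difference of a member. For other genes the comparisons are in CPM unless UMIs per cell are named.

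Added over the 10 members, neutrophils had 2871 CPM (2800 to 2943) and alveolar macrophages 2858 CPM (2807 to 2910), and their intervals overlapped. B cells were lowest with 988 CPM (953 to 1025), and NK cells had 1170 CPM (1051 to 1299). Epithelial cells (1893 CPM) and endothelial cells (1867 CPM) lay in the middle. Counted as molecules per cell the order was different, with 15.9 member UMIs per alveolar macrophage, 9.72 per interstitial macrophage, 7.93 per epithelial cell, 3.71 per neutrophil and 1.66 per B cell. Which member carried the sum also differed by class, as the map of levels by class shows.

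**Figure D1:**
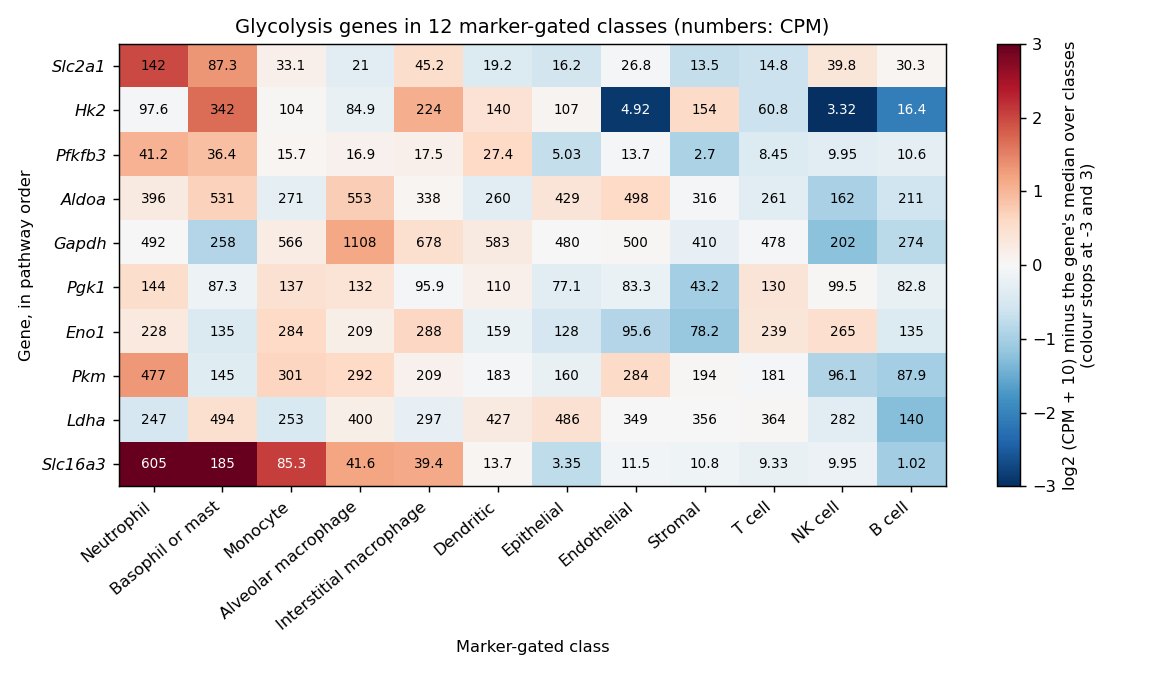
Level of each member in each of the 12 marker-gated classes, in CPM (numbers), with colour for log2 of CPM + 10 relative to the gene's median over the classes (red above, blue below, colour ending at 3 and −3). The deepest red cells were Slc16a3 in neutrophils (605 CPM) and in basophils or mast cells (185 CPM) and the deepest blue ones Hk2 in NK (3.32 CPM) and endothelial cells (4.92 CPM), while Aldoa, Ldha, Pgk1 and Eno1 moved over a narrower range.

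Slc2a1, the glucose carrier, was highest in neutrophils at 142 CPM (126 to 158). Basophils or mast cells followed with 87.3 CPM (55.9 to 130), so neutrophils had 1.62 times that level (1.07 to 2.57). The next classes were interstitial macrophages with 45.2 CPM, NK cells with 39.8, monocytes with 33.1, B cells with 30.3 and endothelial cells with 26.8. Alveolar macrophages (21.0 CPM), dendritic cells (19.2), epithelial cells (16.2), T cells (14.8) and stromal cells (13.5) closed the order, and 10 of its 11 neighbouring pairs had overlapping intervals. With every cell cut down at random to 1000 UMIs (thinned), 12.5% of neutrophils (10.2 to 15.2) and 10.7% of basophils or mast cells (6.22 to 16.7) had a Slc2a1 UMI. In the other classes the share was 5.49% or less. The unthinned shares were 15.04% in neutrophils and 15.8% in interstitial macrophages, at median depths of 909 and 4180 UMIs.

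Hk2, which commits glucose to the cell, had the widest range after Slc16a3 among the 9 members that reached 50 CPM in any class. It was highest in basophils or mast cells at 342 CPM (276 to 418) and in interstitial macrophages at 224 CPM (214 to 235). Stromal cells (154 CPM), dendritic cells (140), epithelial cells (107), monocytes (104), neutrophils (97.6) and alveolar macrophages (84.9) formed a middle group in which each class overlapped its neighbour. T cells had 60.8 CPM (55.5 to 66.4) and B cells 16.4 CPM (12.1 to 21.7). Endothelial cells had 4.92 CPM (2.91 to 7.77), from 18 UMIs in 1728 cells, and NK cells 3.32 CPM (0.0839 to 18.5), from 1 UMI in 222 cells. At 1000 UMIs per cell, 26.0% of basophils or mast cells (19.2 to 33.8) and 19.4% of interstitial macrophages (17.6 to 21.3) had a Hk2 UMI, against 0.381% of endothelial cells (0.14 to 0.827). Without thinning the shares were 35.2%, 53.8% and 0.868%.

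Pfkfb3, the regulator, was the rarest member with 920 UMIs in the whole matrix. It was highest in neutrophils at 41.2 CPM (33.1 to 50.7), and basophils or mast cells had 36.4 CPM (17.4 to 66.9). Dendritic cells had 27.4 CPM and the macrophage classes 16.9 and 17.5 CPM, while epithelial cells had 5.03 CPM (2.98 to 7.94). Each of its 11 neighbouring pairs overlapped, and no class reached the 50 CPM that the comparisons below require.

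The enzymes between aldolase and enolase were present in every class and differed less. Aldoa ran from 162 CPM in NK cells to 553 CPM (531 to 577) in alveolar macrophages, with basophils or mast cells (531 CPM) and endothelial cells (498 CPM) next. Gapdh stood out in alveolar macrophages at 1108 CPM (1076 to 1140), which was 1.63 times (1.57 to 1.70) the 678 CPM of interstitial macrophages, and it was lowest in NK cells at 202 CPM. Pgk1 lay between 43.2 CPM in stromal cells and 144 CPM in neutrophils, and all 11 neighbouring pairs overlapped. Eno1 was highest in interstitial macrophages (288 CPM, 276 to 299) and monocytes (284 CPM, 254 to 316), and NK cells, low for most members, came next with 265 CPM (210 to 330). Endothelial cells (95.6 CPM) and stromal cells (78.2 CPM) were lowest for Eno1. Ranges can be read against all genes: over 6121 genes at 50 CPM or more in any class, the median log2 range over the 12 classes was 2.63, and Aldoa (1.71), Pgk1 (1.54) and Eno1 (1.75) lay below it, with Gapdh at 2.40.

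Pkm, whose product makes pyruvate and ATP, was highest in neutrophils at 477 CPM (449 to 507). Monocytes had 301 CPM (270 to 334), alveolar macrophages 292 and endothelial cells 284, and neutrophils had 1.59 times (1.40 to 1.80) the monocyte level. Interstitial macrophages (209 CPM), stromal cells (194), dendritic cells (183), T cells (181), epithelial cells (160) and basophils or mast cells (145) followed. NK cells (96.1 CPM) and B cells (87.9) were lowest. The counts were taken from the 3′ end and do not separate the splice forms M1 and M2.

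Ldha, which makes lactate, did not follow Pkm. Basophils or mast cells (494 CPM, 415 to 585), epithelial cells (486 CPM, 464 to 510) and dendritic cells (427 CPM, 363 to 500) were highest, and alveolar macrophages had 400 CPM. T cells (364 CPM), stromal cells (356) and endothelial cells (349) followed, then interstitial macrophages (297 CPM), NK cells (282) and monocytes (253). Neutrophils, highest for Pkm, were next to last with 247 CPM (227 to 269), and B cells were lowest with 140 CPM (127 to 154).

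Slc16a3, the lactate exporter, separated the classes most. Neutrophils had 605 CPM (573 to 639), which was 3.26 times (2.47 to 4.41) the 185 CPM (138 to 244) of basophils or mast cells. Monocytes had 85.3 CPM (69.2 to 104), alveolar macrophages 41.6 CPM (35.6 to 48.3) and interstitial macrophages 39.4 CPM (35.2 to 44.0). Dendritic cells (13.7 CPM), endothelial cells (11.5), stromal cells (10.8), NK cells (9.95) and T cells (9.33) had low levels with overlapping intervals. Epithelial cells had 3.35 CPM (1.73 to 5.85), from 12 UMIs in 855 cells, and B cells 1.02 CPM (0.211 to 2.99), from 3 UMIs in 1744 cells. The log2 range of Slc16a3, 5.80, was larger than that of 95.1% of the 6121 genes, and that of Hk2, 4.72, larger than that of 89.2%. The 5 highest classes for Slc16a3 were all myeloid.

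**Figure D2:**
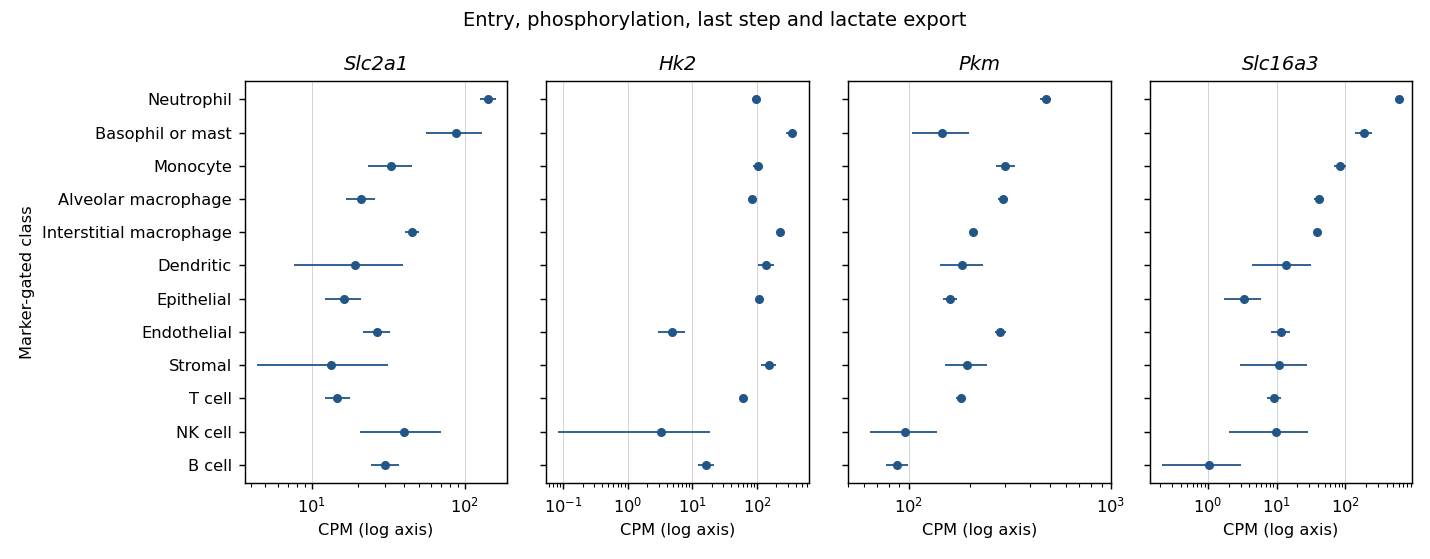
CPM (log axis) of Slc2a1, Hk2, Pkm and Slc16a3 by marker-gated class, with exact 95% Poisson intervals as bars. Neutrophils were highest for Slc2a1, Pkm and Slc16a3 but not for Hk2, whose lowest points were NK cells, from 1 UMI, and endothelial cells.

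The share of cells with a Slc16a3 UMI put these 5 classes in the same order. At 1000 UMIs per cell it was 42.5% of 711 neutrophils (38.8 to 46.2), 20.7% of 150 basophils or mast cells (14.5 to 28.0), 6.45% of 372 monocytes (4.18 to 9.45), 4.92% of 732 alveolar macrophages and 2.88% of 1843 interstitial macrophages. It was 0.241% of 830 epithelial cells (0.0292 to 0.868) and 0.134% of 1489 B cells (0.0163 to 0.484), the class read here as background. The unthinned shares were 45.2% of neutrophils and 0.172% of B cells, at median depths of 909 and 1400 UMIs. Only 711 of 1675 neutrophils had the depth needed for thinning.

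**Figure D3:**
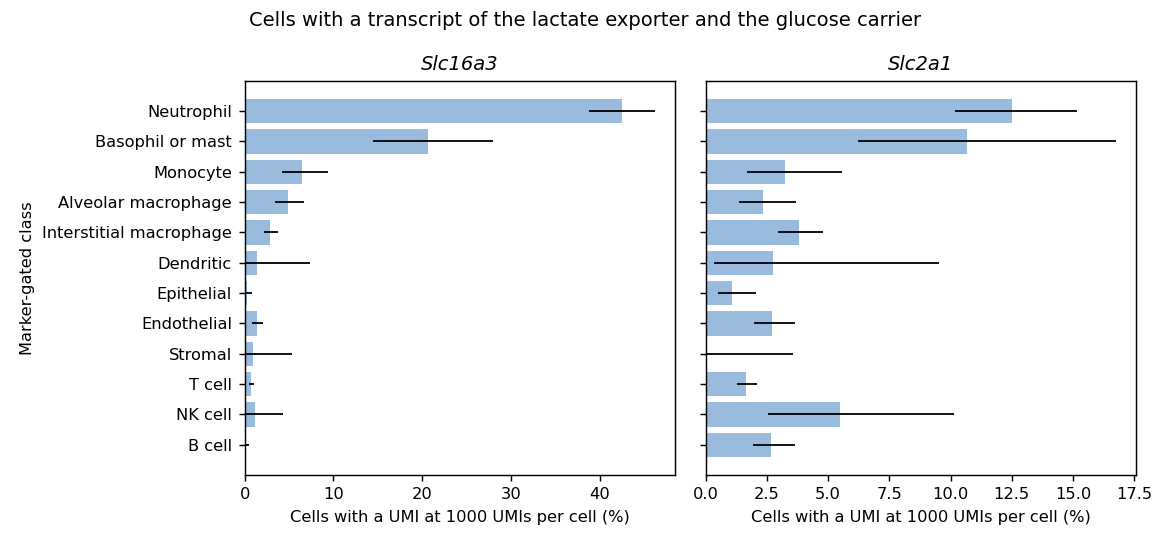
Share of cells (%) with at least 1 UMI of Slc16a3 and of Slc2a1 in each class after thinning every cell to 1000 UMIs, with exact 95% binomial intervals as lines. Neutrophils reached 42.5% for Slc16a3 and 12.5% for Slc2a1, and B cells 0.134% for Slc16a3.

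For each pair of classes below, a gene counted as past the threshold where the CPM + 10 of one class was at least 2 times that of the other, among genes at 50 CPM or more in either class. Neutrophils were first set against interstitial macrophages, the most numerous myeloid class. Of 9 members measured at 50 CPM or more, 3 were higher in neutrophils and 1 was lower, and over all 3255 genes 24.6% were higher and 24.9% lower. Among the 3, Slc2a1 and Slc16a3 reached 50 CPM in neutrophils only, so they were measured through the class where they were high. Slc16a3 differed most, with 605 against 39.4 CPM (log2 ratio 3.94, 3.76 to 4.12). Slc2a1 was at 142 against 45.2 CPM (1.65, 1.42 to 1.87) and Pkm at 477 against 209 CPM (1.19, 1.08 to 1.30). Per cell, however, Slc2a1 did not differ beyond counting error, with 0.183 UMIs per neutrophil and 0.197 per interstitial macrophage (0.929 times, 0.795 to 1.08), and Pkm was lower, with 0.616 and 0.909 (0.678 times, 0.627 to 0.733), so the direction of both rests on the scaling. Slc16a3 was higher on both scales, with 0.781 UMIs per neutrophil and 0.171 per interstitial macrophage (4.56 times, 4.03 to 5.17). Hk2 was lower in neutrophils on both, at 97.6 against 224 CPM (log2 ratio −1.20, −1.41 to −0.995) and 0.126 against 0.977 UMIs per cell. The Pkm call was also lost with totals without ribosomal and mitochondrial genes (0.88), and the Hk2 call with at least 500 genes per cell (−0.91), both as log2 ratios with the pseudocount. Of the 9 members measured, the median log2 ratio was 0.22, beside −0.01 over all genes.

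**Figure D4:**
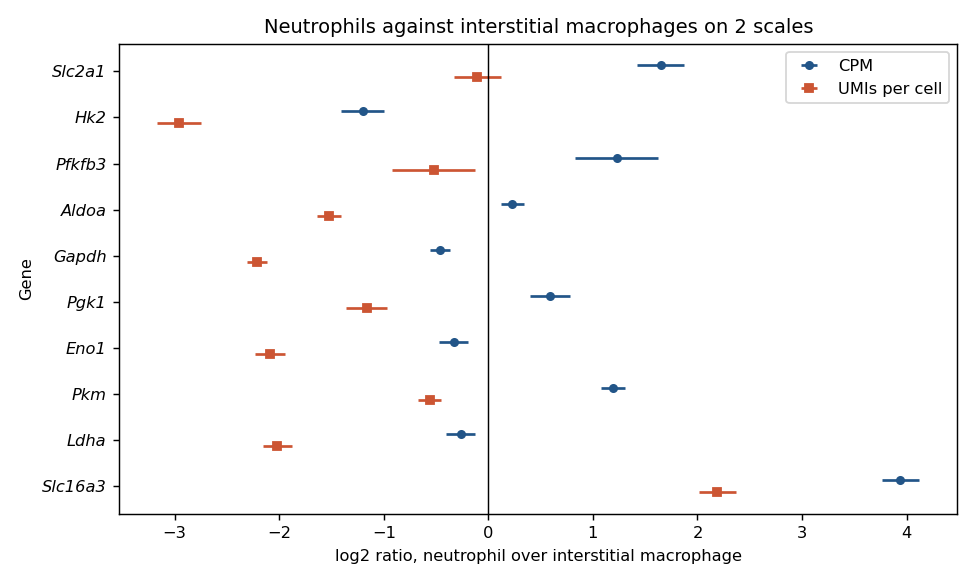
log2 ratio of neutrophils over interstitial macrophages for each member, from CPM (circles) and from UMIs per cell (squares), with exact 95% counting intervals as bars. Slc16a3 was above 0 and Hk2 below 0 on both scales, whereas Slc2a1 and Pkm were above 0 in CPM only, with per-cell ratios of 0.929 and 0.678.

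Monocytes, circulating cells of the same myeloid branch, were used as a second reference for neutrophils. Slc16a3 (605 against 85.3 CPM, log2 ratio 2.83, 2.53 to 3.14) and Slc2a1 (142 against 33.1 CPM, 2.10, 1.61 to 2.62) were higher, 2 of 9 members, and none was lower, beside 17.9% and 20.4% of 3161 genes. Both were also higher per cell, by 2.99 times (2.43 to 3.71) for Slc16a3 and 1.80 times (1.28 to 2.60) for Slc2a1. Of these 2 classes, Slc2a1 reached 50 CPM in neutrophils only, and Slc16a3 in both. Pkm was 1.59 times higher in CPM and 0.668 times in UMIs per cell. Hk2 (97.6 and 104 CPM), Ldha (247 and 253) and Pgk1 (144 and 137) had intervals of the ratio that spanned 0 on the log scale in CPM, and per cell they were lower in neutrophils at 0.397, 0.412 and 0.442 times.

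Other genes of the pathway were read from a list of 23 that held no member. In both neutrophil comparisons 4 of the 8 measured were higher in CPM in neutrophils and none was lower, beside 24.6% of all genes higher than in interstitial macrophages and 17.9% higher than in monocytes. These 4 reached 50 CPM in neutrophils but in neither reference class. They were thus measured only through the class where they were high, and the count is not support from separate genes. Slc2a3, the high-affinity glucose carrier GLUT3, had 356 CPM (331 to 382) in neutrophils, 4.07 in interstitial macrophages, 11.3 in monocytes and 0.279 in epithelial cells. Slc2a6, a further carrier of the family, had 105 CPM, against 24.3 and 27.8 in those myeloid classes. Hk3, a hexokinase of granulocytes and monocytes, had 53.7 CPM against 6.17 and 12.2, and Pfkfb4, which makes and removes the same regulator as Pfkfb3, had 99.9 CPM against 23.0 and 31.3. In UMIs per cell, Slc2a3 had 0.460 in neutrophils, 0.0177 in interstitial macrophages and 0.0347 in monocytes. Slc2a6 had 0.136, 0.106 and 0.0853 and Pfkfb4 0.129, 0.0999 and 0.0960 in the same classes, so that per cell these differences were under 2 times. The member hexokinase Hk2 did not go with Hk3, being lower than in interstitial macrophages, and Aldoa, Gapdh, Pgk1, Eno1 and Ldha were within the threshold in CPM. Txnip, whose product restrains glucose uptake, was also highest in neutrophils, at 800 CPM (762 to 838) against 62.3 in interstitial macrophages and 54.0 in monocytes. Of the 16 genes of a hypoxia-response list, none of the 4 measured was past the threshold between neutrophils and interstitial macrophages, and Higd1a alone was lower than in monocytes.

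Alveolar macrophages, the resident phagocytes of the air space, were compared with interstitial macrophages. Hk2 was the only member past the threshold of 7 measured, at 84.9 against 224 CPM (log2 ratio −1.40, −1.57 to −1.24), where 8.69% of 3256 genes were lower and 15.1% higher. With the pseudocount this call was lost under the strict gate (log2 ratio −0.59), without tdTomato-positive cells outside the epithelium (−0.85) and per cell (−0.99), all still lower. Below the threshold the enzymes leaned the other way in CPM. Aldoa (553 against 338 CPM, 0.71) and Gapdh (1108 against 678 CPM, 0.71) were higher in alveolar macrophages, with Ldha, Pgk1 and Pkm at log2 ratios of 0.43 to 0.48 and intervals above 0, and Eno1 was lower at −0.46 (−0.57 to −0.35). Slc16a3 was at 41.6 and 39.4 CPM (1.06 times, 0.872 to 1.28). Per cell Slc16a3 was higher in alveolar macrophages (0.231 against 0.171 UMIs, 1.35 times, 1.11 to 1.63), and the Eno1 interval spanned no difference (0.929 times, 0.858 to 1.005). From the pathway list Aldoc, the brain form of aldolase, was higher (83.2 against 27.3 CPM), and so was Mpc2, a subunit of the mitochondrial pyruvate carrier (299 against 123 CPM). In alveolar macrophages 93.5% of cells had 2 or more tdTomato UMIs and 95.6% had at least 1, which is reporter RNA and not proof of recombination. The 696 cells with 2 or more tdTomato UMIs and 33 cells with 0 differed beyond counting error for 1 member, Slc16a3, with 38.6 against 115 CPM.

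Epithelial cells hold the tumor cells, and alveolar macrophages were the only other class in which most cells had 2 or more tdTomato UMIs. Against these, Gapdh alone of 7 members was past the threshold, at 480 against 1108 CPM (log2 ratio −1.21, −1.29 to −1.12), while 28.7% of 3599 genes were lower and 16.2% higher in the epithelium. Pkm (160 against 292 CPM), Pgk1 (77.1 against 132) and Eno1 (128 against 209) were lower by less than 2 times in CPM. In UMIs per cell these 3 were lower by more than 2 times, at 0.414, 0.440 and 0.461 times. Ldha (486 against 400 CPM, 1.22 times, 1.14 to 1.30) and Hk2 (107 against 84.9 CPM, 1.26 times, 1.09 to 1.46) were slightly higher in CPM only. Per cell Ldha was lower in the epithelium (0.916 times, 0.856 to 0.981) and the Hk2 interval spanned no difference (0.9495 times, 0.819 to 1.10). With clusters in place of gates the Gapdh call was lost (log2 ratio −0.90 with the pseudocount). Of the pathway list, epithelial cells had more Ldhb, the heart form of lactate dehydrogenase (78.4 against 1.21 CPM), and they had less Pfkp (18.1 against 96.0), Aldoc (12.3 against 83.2) and Pgam1 (70.6 against 248.8). Slc16a1, the general lactate carrier MCT1, had 29.9 CPM in epithelial cells and 4.84 in alveolar macrophages, the opposite order to Slc16a3 (3.35 and 41.6 CPM). Neither carrier reached 50 CPM.

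Within the epithelium, cells were placed by the summed share of 8 alveolar type II (ATII) genes, which make and store surfactant, and by Hopx, a gene of the alveolar type I (ATI) program. ATII-like cells without Hopx numbered 506, ATII-like cells with Hopx 158 and ATI-like cells, low in ATII genes and with Hopx, 115; a further 50 cells low in ATII genes and without Hopx stayed unnamed and 26 were airway cells. ATI genes held out of this rule had 1450, 3490 and 8156 CPM in the 3 states, in that order. The ATII-low boundary lay at 0.57% of a cell's UMIs, and 108 of 829 cells lay near it. ATI-like cells still had 9071 CPM of Sftpc, and their median depth was 2152 UMIs against 4456 for ATII-like cells without Hopx.

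The late steps Eno1 and Pkm were higher in CPM in ATI-like cells than in ATII-like cells without Hopx, and Hk2 was lower. Eno1 had 244 CPM (189 to 309) against 93.6 (81.6 to 107), a log2 ratio of 1.38 (0.97 to 1.78). Pkm had 280 CPM (221 to 349) against 131 (117 to 146), a ratio of 1.09 (0.72 to 1.46). Hk2 had 39.4 CPM (19.7 to 70.6), from 11 UMIs, against 120 (106 to 135), a ratio of −1.60 (−2.62 to −0.74). These were 2 members higher and 1 lower of 7 measured, beside 13% higher and 8.52% lower of 3088 genes. Pgk1 (118 against 71.3 CPM) and Aldoa (548 against 388 CPM) were higher by 1.66 and 1.41 times with intervals above 1 in CPM, Gapdh was at 516 and 474 CPM, and Ldha was lower at 401 against 521 CPM (0.771 times, 0.629 to 0.936). In UMIs per cell Eno1 stayed higher but under 2 times (0.591 against 0.431, 1.37 times, 1.03 to 1.81). The Pkm interval spanned no difference (0.678 against 0.603, 1.13 times, 0.866 to 1.45), and Hk2 was lower still (0.0957 against 0.551). Per cell Aldoa turned to lower in ATI-like cells (0.746 times, 0.624 to 0.886), Gapdh was lower (0.574 times, 0.479 to 0.683) and the Pgk1 interval spanned no difference (0.875 times, 0.583 to 1.28). Depth ran along with the Eno1 and Pkm difference: the shallower of the epithelial cells, split at the median depth, had more Eno1 (174 against 108 CPM) and Pkm (189 against 148 CPM) than the deeper ones, and its part in the result was not tested. With the pseudocount the Pkm call was lost under the strict gate (log2 ratio 0.72), the loose gate (0.86) and without genes above 5000 CPM (0.90), and the Eno1 call with the ATII boundary at 0.3% (0.83). Slc16a3 had 0 UMIs in ATI-like cells, which allows up to 10.8 CPM by 3 UMIs, and 3 UMIs in ATII-like cells without Hopx.

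ATII-like cells with Hopx lay between these states for Eno1 and Pkm. Eno1 had 170 CPM (140 to 205), 1.82 times (1.44 to 2.30) the level without Hopx, and Pkm had 180 CPM (149 to 215), 1.37 times (1.10 to 1.70), or per cell 1.65 times (1.30 to 2.08) for Eno1 and 1.24 times (0.993 to 1.54) for Pkm. Hk2 was at 114 CPM, beside 120 CPM in cells without Hopx (0.953 times, 0.728 to 1.23), and unlike in ATI-like cells. No member passed the threshold in either direction, beside 2.01% higher and 1.44% lower of 2632 genes. The 50 unnamed cells, which had 2128 CPM of the held-out ATI genes and 214 CPM of the neutrophil transcript S100a8, the most of the epithelial groups, had 270 CPM of Eno1 (199 to 358) and 360 CPM of Pkm (277 to 460), intervals that overlapped those of ATI-like cells, and 78.8 CPM of Hk2 (43.1 to 132).

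**Figure D5:**
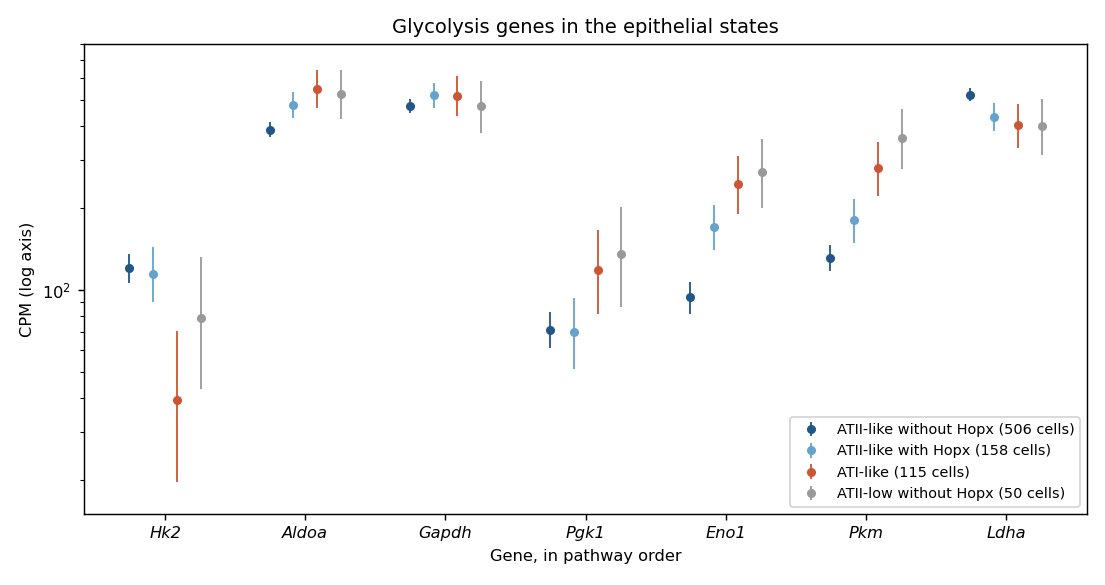
CPM (log axis) of 7 members in the 4 alveolar groups of epithelial cells, with exact 95% Poisson intervals as bars. Eno1 went from 93.6 to 170 to 244 CPM and Pkm from 131 to 180 to 280 CPM over the 3 named states, and Hk2 was lowest in ATI-like cells.

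No gene of the pathway list was past the threshold between the epithelial states (5 measured in each comparison). Fbp1, which runs the phosphofructokinase step backwards, had 33.5 CPM in ATII-like cells without Hopx and 0 UMIs in ATI-like cells, which allows up to 10.8 CPM. Of 8 hypoxia-list genes measured, Vegfa, an endothelial growth factor, was higher in CPM in ATI-like cells (326 against 153 CPM). Epas1, which encodes HIF-2α (21.5 against 177 CPM), Bnip3 (17.9 against 60.6) and P4ha1 (39.4 against 94.5) were lower there. Their directions in CPM therefore differed within 1 list. The Vegfa direction is stated for CPM only, and ATI-like cells were read less deeply than ATII-like cells without Hopx.

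Among lymphocytes, the question was how T, B and NK cells compare. T cells had 2 of 7 members past the threshold over B cells and none below, where 10.1% and 9.95% of 2624 genes were higher and lower. These were Hk2 (60.8 against 16.4 CPM, log2 ratio 1.89, 1.46 to 2.35) and Ldha (364 against 140 CPM, 1.38, 1.23 to 1.53). Pkm (181 against 87.9 CPM, 1.04), Eno1 (239 against 135, 0.83), Gapdh (478 against 274, 0.80), Pgk1 (130 against 82.8, 0.65) and Aldoa (261 against 211, 0.31) had intervals above 0 without passing it. The median of the 7 was 0.78, beside 0.04 over all genes. Slc2a1 ran against this, with 14.8 CPM in T cells (12.2 to 17.7) and 30.3 in B cells (24.4 to 37.3). B cells also had more Myc, a regulator of growth (206 against 33.2 CPM), and less Hif1a (62.7 against 173 CPM).

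NK cells were lower than T cells for Hk2 (3.32 against 60.8 CPM, log2 ratio −4.20, −9.50 to −1.71) and Gapdh (202 against 478 CPM, −1.24, −1.63 to −0.88), 2 of 7 members, with none higher, beside 6.11% lower and 11.1% higher of 2863 genes. Pkm (96.1 against 181 CPM), Aldoa (162 against 261) and Ldha (282 against 364) were lower within the threshold. Eno1 did not differ beyond counting error (265 and 239 CPM, 1.11 times, 0.875 to 1.39). NK cells had more Slc2a3 (76.3 against 17.6 CPM) and, at low counts, Slc2a1 (39.8 against 14.8 CPM, 2.70 times, 1.35 to 4.89), whose interval spanned no difference per cell (1.96 times, 0.983 to 3.55). The NK gate held 222 cells, whereas a cluster with the same main class held 541, and there Hk2 alone was past the threshold. The Gapdh call was lost there (log2 ratio −0.72 with the pseudocount), under the strict gate (−0.90) and after thinning (−0.90).

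Interstitial macrophages and T cells differed at Hk2 alone of 7 measured members (224 against 60.8 CPM, log2 ratio 1.88, 1.74 to 2.03), beside 22.5% higher and 11.6% lower of 2949 genes. Slc16a3 (39.4 against 9.33 CPM, 4.22 times, 3.27 to 5.51) and Slc2a1 (45.2 against 14.8, 3.06 times, 2.48 to 3.81) were also higher in the macrophages but under 50 CPM in both. Ldha (297 against 364 CPM) and Pgk1 (95.9 against 130) were lower in CPM, and per cell both turned to higher, by 1.90 times (1.80 to 2.01) and 1.72 times (1.56 to 1.89). Per cell 7 members were past the threshold, at median depths of 4180 UMIs in the macrophages and 1627 in T cells. The shares of all genes above are for CPM and none is given per cell, so this count is not read as particular to the members. The pathway genes Pfkp and Pgam1 were higher in the macrophages (122 against 55.2 and 150 against 65.7 CPM).

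Cells in division were set apart by 2 or more genes of a cell-cycle list, which left 123 cycling and 4114 other T cells. In the cycling cells 7 of 10 members had intervals above 0. No share over all genes stands beside this count or beside those of the macrophages below. None of these counts is therefore read as particular to the members. Pgk1 had 302 against 114 CPM, Gapdh 996 against 430, Pkm 355 against 165, Ldha 643 against 338, Eno1 356 against 229 and Aldoa 353 against 252 CPM, and Slc16a3 22.4 against 8.12. Hk2 (46.4 against 62.1 CPM), Slc2a1 (13.5 against 14.9) and Pfkfb3 (8.98 against 8.40) had intervals that spanned no difference. The cycling cells were read deeper, at 5238 against 1607 UMIs, and in T cells as a whole the deeper cells had 6 members above the shallower ones, so the part of depth was not tested. In cycling interstitial macrophages (75 cells) 4 members were above and 2 below, Pgk1 with the largest ratio (179 against 90.9 CPM), and Aldoa was lower (231 against 345 CPM). Cycling alveolar macrophages (57 cells, against 687 others) had 5 members above and 0 below.

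Likeness of pattern was measured by the correlation of log2 levels over the 12 classes with each of 6121 genes, as a description of points that share 1 matrix and differ in depth. Slc16a3 was most like Mapk14 (r = 0.96), Ndel1 (0.95) and Clec4e (0.94), and Slc2a1 most like 4833407H14Rik (0.91), Slc2a6 (0.91) and Cmip (0.90), all 6 highest in neutrophils. Pfkfb3 was most like Kctd12 (0.95), Rin3 (0.92) and Eloa (0.91). For Hk2 the nearest genes named here, Smim3 and Pla2g4a, reached only 0.79 each.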

How the data were processed

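Droplet 3′ single-cell RNA sequencing was done by the authors on viable cells, sorted by DAPI only, from 4 mice. Cell Ranger (3.0.2) was run by the authors on mm10 extended by the reporters GFP and TdTomato, and raw UMI counts per gene and cell were deposited for all mice together in 1 matrix. The sources used here do not say how libraries were combined.

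Cells with at least 200 genes and below the 98th percentile of genes (2713) and of mitochondrial share (13.4%) were kept, since the study's own percentiles were not stated. Doublets were removed by no caller; the gates leave out cells with markers of several classes (2997 cells), and 2710 further cells had too few markers. UMIs were summed per class (Python 3.11.15, SciPy 1.17.1), with exact Poisson intervals for CPM, exact conditional intervals for ratios and exact Clopper-Pearson intervals for shares. Thresholds used CPM + 10, a 2-fold difference and at least 50 CPM in either class. The ATII boundary was to be read at a low point between 2 modes; none was clear, and Otsu's method was used after the data were seen. Simulated counts were Poisson draws, the same model as the intervals, without spread between cells or mice. For ATI-like against ATII-like cells (2329 genes, 200 changed 4-fold) 96.3% of intervals held the true ratio and 96.5% of changed genes were recovered. For neutrophils against interstitial macrophages (2557 genes) the values were 95.7% and 100%. The simulation therefore checks the calculation only. Clusters for an alternative came from Seurat 5.3.0 (R 4.3.3).

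Named genes were the 10 members, the genes of fixed lists (pathway, pyruvate entry, hypoxia response, growth regulators, cell cycle, dissociation stress, free RNA) and the 3 genes most like each of 4 members. The members and lists were chosen with earlier results of these data known. Dissociation stress genes summed to 4893 CPM in neutrophils, 4892 in alveolar and 4893 in interstitial macrophages and 1180 in T cells, and their part in the differences was not tested. A further allele of the mice and a gene among those most like a member are not reported here.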

Additional observations from a re-analysis of the deposited data

How the results depend on the processing

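Counts of members past the threshold (higher and lower in the class named first) stayed within 1.5 times in 212 recomputed main results and moved in 40. With at least 500 genes per cell, 0 members were lower in neutrophils than in interstitial macrophages. Under the strict gate (27 alveolar macrophages left) 1 member was higher in ATI-like than ATII-like cells without Hopx, 1 was higher and 0 lower in alveolar than interstitial macrophages, 1 was lower in interstitial macrophages than T cells, and 5 members kept their highest class, against 6 with totals without ribosomal and mitochondrial genes and 4 by UMIs per cell. The loose gate, the ATII boundary at 0.3% and totals without genes above 5000 CPM each left 1 member higher in ATI-like cells. With clusters in place of gates 0 members were lower in epithelial cells than alveolar macrophages and 1 was lower in NK than T cells, and the epithelial states gave no value. In epithelial cells against alveolar macrophages 2 members were lower without ribosomal and mitochondrial genes, after thinning, without genes above 5000 CPM, and without tdTomato-positive cells outside the epithelium, and 4 at 1.5-fold or per cell. For interstitial macrophages over T cells the count higher was 2 without ribosomal and mitochondrial genes, 3 without genes above 5000 CPM and 7 per cell. In NK against T cells 1 was higher and 1 lower after thinning, 1 was higher without genes above 5000 CPM, and 4 were lower at 1.5-fold or per cell. At 1.5-fold 1 member was higher with than without Hopx, 2 in alveolar over interstitial macrophages and 6 in T over B cells. Without tdTomato-positive cells 1 member was higher and 0 lower in alveolar than interstitial macrophages. Per cell, 0 were higher and 2 lower in ATI-like cells, 2 higher and 0 lower in alveolar over interstitial macrophages, 1 higher and 6 lower in neutrophils over interstitial macrophages, and 1 higher and 5 lower in neutrophils over monocytes. Also per cell, the neutrophil to interstitial macrophage log2 ratio turned to −0.087 for Slc2a1 and −0.53 for Pkm (both with the pseudocount). No share of all genes is given beside the counts under these settings, so they describe how stable the calls were and nothing particular to the members. The cause of these moves was not tested. Slc16a3 stayed past the threshold in 13 of 13 settings of both neutrophil comparisons, and Hk2 in 15 of 15 for the ATI-like cells and 13 of 13 for T over B cells. The per-cell setting, the totals without genes above 5000 CPM and the other ATII boundaries were chosen after seeing the data. No paired analysis was possible because the mouse of origin of each cell is unknown here.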
